A study of Mus musculus with 12 samples.

Results

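The neuronal immediate early genes Fos, Fosb, Junb, Egr1, Egr2, Egr4, Arc, Npas4, Nr4a1 and Ier2 were taken by name and followed in the adult mouse hippocampus. They are 10 of the 35580 genes that have a value, and 31 of the 115270 transcripts listed. RNA-Seq was done on hippocampal RNA of 12 male C57BL/6 mice (C57BL/6J in the study's methods), with 3 mice in each of 4 groups, all killed at postnatal day 70. Control mice were born to dams that drank only water and were left with the dam. Ethanol mice were born to dams that could choose between water and 10% ethanol during pregnancy and for a time after birth, so that intake was voluntary, and blood alcohol was not measured. Stress mice had water-drinking dams and were isolated from dam and littermates for 3 h each day on postnatal days 2 to 14. Ethanol + stress mice had both treatments. Pups for separation were picked from within litters, so stressed and undisturbed mice may be littermates, but the labels do not give the litter. All mice were killed with carbon dioxide and cervical dislocation, and these animals had also been through behavioral testing, whose timing relative to death is not given in the sources used here.

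Immediate early genes are transcribed within minutes of neuronal activity, from transcription factors that are already present in the resting cell and without new protein synthesis. Calcium entry and kinase signalling act on factors such as CREB, which binds the cyclic AMP response element (CRE), and on serum response factor, which binds the CArG box. Most of the protein products are themselves transcription factors that set the later response of the cell, while Arc acts at the synapse. In the hippocampus their RNA is widely used to mark recently active neurons, and it is short-lived.

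Abundance is given as TPM, which corrects for transcript length, in the scaling between libraries that the authors deposited, and was summed here per gene. The 12 libraries hold between 12050000 and 14950000 read pairs, a depth recovered from the spacing of the low values. At this depth the sums of the 10 genes rest on between 5.99 read pairs for Egr2 and 3595 for Arc in a library. Markers of neurons summed to between 1997 and 2664 TPM per library, and those of dentate granule, CA1 and CA3 cells were above 0 in each library. The libraries of ethanol replicate 2 and of ethanol + stress replicates 2 and 3 have the highest sums of all values, 1126490 to 1173650 against a lowest sum of 889222. Hemoglobin genes and Alas2, as markers of blood, were higher in ethanol and ethanol + stress than in control mice, with 5 of 5 called in each comparison, where 95 and 128 of all 18434 genes were called higher. In stress mice the same 5 genes had positive values without a call. Choroid plexus genes ranged from 37.0 to 7189 TPM in sum and were called in no comparison. In bulk tissue a lower value can stem from fewer cells of a type or from less RNA per cell, and these cannot be told apart.

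The stretch just before the start of these genes is shown first, as a description, and its part in their levels was not tested. RefSeq promoter sequences of the same build (GRCm38.p6) were given for 7 of the 10 genes, not for Egr1, Arc and Ier2. At least 1 window of each of the 7 holds the CRE half-site TGACG, on either strand, within 250 bases before the RefSeq start. Egr2 has 5 windows, of which 3 overlapping ones hold it and 2 do not, and the one at the start of Egr2-201 is used here, so that the count of 7 is not comparable with a share of single windows. The Npas4 window is that of Npas4-202, with 250 of 250 bases in annotated exons, and lies downstream of the start of Npas4-201, the Npas4 transcript in these data, so that the sequence before that start was not searched. Of all 32851 promoter windows of that length 17.8% hold it, and of the 10574 with a GC content at least as high as the lowest among these genes (58.4%), 26.7% do. The full CRE TGACGTCA (1.55% of all windows), the EGR site GCGTGGGCG (0.536%) and the AP-1 site TGANTCA (6.75%) were not matched in any of the 7 windows. The CArG box was matched in Egr2 (1.47% of all windows), the TATA box TATAAA in Fos (12.4%), and the CCAAT box in Junb and Egr2 (33.8%). Sequence beyond these 250 bases was not searched, so a window without a match does not show that the gene lacks the motif. No match of one of these motifs overlaps that of another in the 4 windows printed. A match describes the letters only and does not show that a factor binds there. The windows of the pair of genes called below, of Egr2 with the widest set of motifs, and of Egr4 with the smallest spread are given 5′ to 3′ on the gene's strand, at chr12:85473640-85473889 on the plus strand for Fos, chr15:101266596-101266845 on the plus strand for Nr4a1, chr10:67537619-67537868 on the plus strand for Egr2 and chr6:85513590-85513839 on the minus strand for Egr4. None of the 4 windows overlaps an annotated exon of its own gene, and exons of other genes were not checked. Capitals mark the CRE half-site as TGACG or, on the opposite strand, CGTCA, and likewise the TATA, CArG and CCAAT boxes.
Fos: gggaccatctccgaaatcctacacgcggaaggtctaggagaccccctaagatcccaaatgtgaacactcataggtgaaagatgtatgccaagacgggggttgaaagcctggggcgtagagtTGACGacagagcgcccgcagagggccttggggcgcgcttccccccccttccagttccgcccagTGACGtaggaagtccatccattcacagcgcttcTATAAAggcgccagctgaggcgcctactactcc
Nr4a1: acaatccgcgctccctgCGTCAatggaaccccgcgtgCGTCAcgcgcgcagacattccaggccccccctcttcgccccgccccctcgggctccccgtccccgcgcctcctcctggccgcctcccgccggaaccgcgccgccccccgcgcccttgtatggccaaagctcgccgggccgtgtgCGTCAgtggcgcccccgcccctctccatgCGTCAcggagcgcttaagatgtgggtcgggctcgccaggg
Egr2: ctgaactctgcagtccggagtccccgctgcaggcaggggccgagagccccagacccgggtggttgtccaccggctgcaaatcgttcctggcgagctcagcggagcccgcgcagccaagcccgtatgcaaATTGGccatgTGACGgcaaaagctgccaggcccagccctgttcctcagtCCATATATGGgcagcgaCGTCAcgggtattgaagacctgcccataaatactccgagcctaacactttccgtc
Egr4: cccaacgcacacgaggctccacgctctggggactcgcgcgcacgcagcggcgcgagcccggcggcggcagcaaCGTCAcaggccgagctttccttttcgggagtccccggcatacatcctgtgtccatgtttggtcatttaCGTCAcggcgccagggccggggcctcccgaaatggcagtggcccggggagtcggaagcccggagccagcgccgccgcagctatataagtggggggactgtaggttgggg
Fos has a half-site at bases -129 to -125 and another at -66 to -62, counted back from the first transcribed base, and its TATA box lies at -33 to -28. Nr4a1 has 4 half-sites, the nearest at -40 to -36. In Egr2 the CArG box at -72 to -63 lies between half-sites at -111 to -107 and -55 to -51. Egr4 has half-sites at -177 to -173 and -109 to -105.

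**Figure D1:**
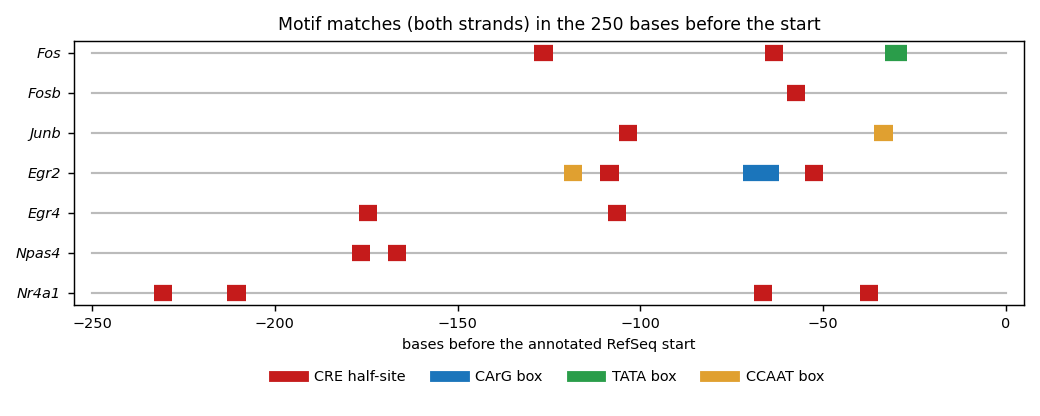
Motif matches on both strands in the 250 bases before the RefSeq start of the 7 genes with a promoter sequence, by distance from the start in bases, with 1 line per gene and 1 color per motif. Each of the 7 lines carries at least 1 CRE half-site, and Nr4a1 carries 4. The line of Npas4 lies within annotated exons.

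To ask whether postnatal separation changed the levels of these genes in either prenatal setting, the 6 stressed mice were compared with the 6 undisturbed mice in the model of all 4 groups, as the mean of the stress against control and the ethanol + stress against ethanol differences. All 10 genes had lower fitted levels in stressed mice, with a median log2 fold change of -0.43, on the scale of log2(TPM + 0.5), where the median of all 18434 genes tested is -0.00 and 50.1% of genes are negative. Fos and Nr4a1 fell past the threshold used here, an unadjusted p under 0.01 in limma, which 0.277% of all genes passed as lower and 0.586% in either direction. At p under 0.05, 5 of 10 were lower (Fos, Nr4a1, Junb, Egr4 and Egr1) where 1.52% of all genes were. In none of the 10 were the 6 stressed mice all below the 6 others (0.0651% of all genes). No call survived adjustment over all genes tested (adjusted p = 1.0 for each of the 10), and p values measure the spread between these 12 mice only. The 10 genes varied together over the mice, as given below. Counts out of 10, here and in later comparisons, are therefore not counts of independent observations. The genes were also chosen with earlier results of these data known.

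Fos encodes the founding member of the family that pairs with Jun proteins to form AP-1, and lies at chr12:85473890-85477273 (GRCm38, plus strand, 4 transcripts). Its summed TPM were 23.1, 20.2 and 30.8 in the 3 control mice, 10.8, 19.1 and 32.0 in ethanol mice, 23.6, 5.37 and 8.60 in stress mice and 8.18, 14.6 and 5.74 in ethanol + stress mice. Stress replicate 1 stood at the level of the controls, the other 5 stressed mice were below all 3 controls, and the lowest of the undisturbed mice was ethanol replicate 1. The stress effect was a log2 fold change of -1.12 (SE 0.36, 95% interval -1.90 to -0.34, limma, adjusted p = 1.0). The values rest on 72.9 to 521 read pairs per library.

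Nr4a1 encodes an orphan nuclear receptor induced by calcium and cyclic AMP, and lies at chr15:101254269-101274795 on the plus strand. It measured 23.7, 27.1 and 30.9 TPM in control, 17.9, 27.9 and 36.2 in ethanol, 23.7, 10.2 and 13.1 in stress and 17.7, 23.1 and 11.5 in ethanol + stress mice. The 3 ethanol + stress mice lay below all controls, while stress replicate 1 equalled the lowest control to the digits given. The stress effect was -0.75 (SE 0.23, 95% interval -1.25 to -0.24, limma, adjusted p = 1.0).

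The calls of both genes lie close to the threshold and turn on single mice and on settings of the fit. Of 10 other alternatives 6 kept each call. Both calls were lost with no filter, without the variance trend and with a replicate block. Leaving out 1 library in turn, Fos and Nr4a1 were both called without ethanol replicate 1, stress replicate 1 or ethanol + stress replicate 2, and neither was called without any of the other 9. The Fos effect then ran from -0.90 without stress replicate 2 to -1.40 without stress replicate 1, and that of Nr4a1 from -0.61 without ethanol + stress replicate 3 to -0.91 without stress replicate 1. Without ethanol replicate 1, Junb, Npas4 and Ier2 were called as well, so that 5 of 10 passed. Without stress replicate 1 Junb joined them, and without ethanol + stress replicate 2 Junb and Arc did. All 10 fitted differences stayed negative in each of 22 alternatives, with medians between -0.54 and -0.28, except that a minimum of 1 TPM left 9 genes to fit, all negative. Without the 3 libraries of highest sums Fos stood at -1.17 (limma) and Nr4a1 at -0.69, and neither was called. That fit holds 2 ethanol mice and 1 ethanol + stress mouse, whose spread is assumed to be that of the other groups, so that the lost calls rest on fewer samples. Neuron markers had a median of -0.09 in the same comparison and CA1 pyramidal cell markers one of -0.15, with 4 of 4 negative and 0 called in each list. CA3 pyramidal cell markers (median 0.0651) and oligodendrocyte markers (0.16) had 4 of 4 positive and 0 called each, and choroid plexus markers a median of 1.17 with 5 of 5 positive and 0 called. Blood markers had a median of 0.28 with 5 of 5 positive, and striatum markers one of 0.34 with 4 of 4 positive, with none called in either list. Choroid plexus markers summed to 611 to 1822 TPM in control, 37.0 to 3497 in ethanol, 1635 to 5215 in stress and 203 to 7189 in ethanol + stress mice, and the part of these markers in the result was not tested.

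**Figure D2:**
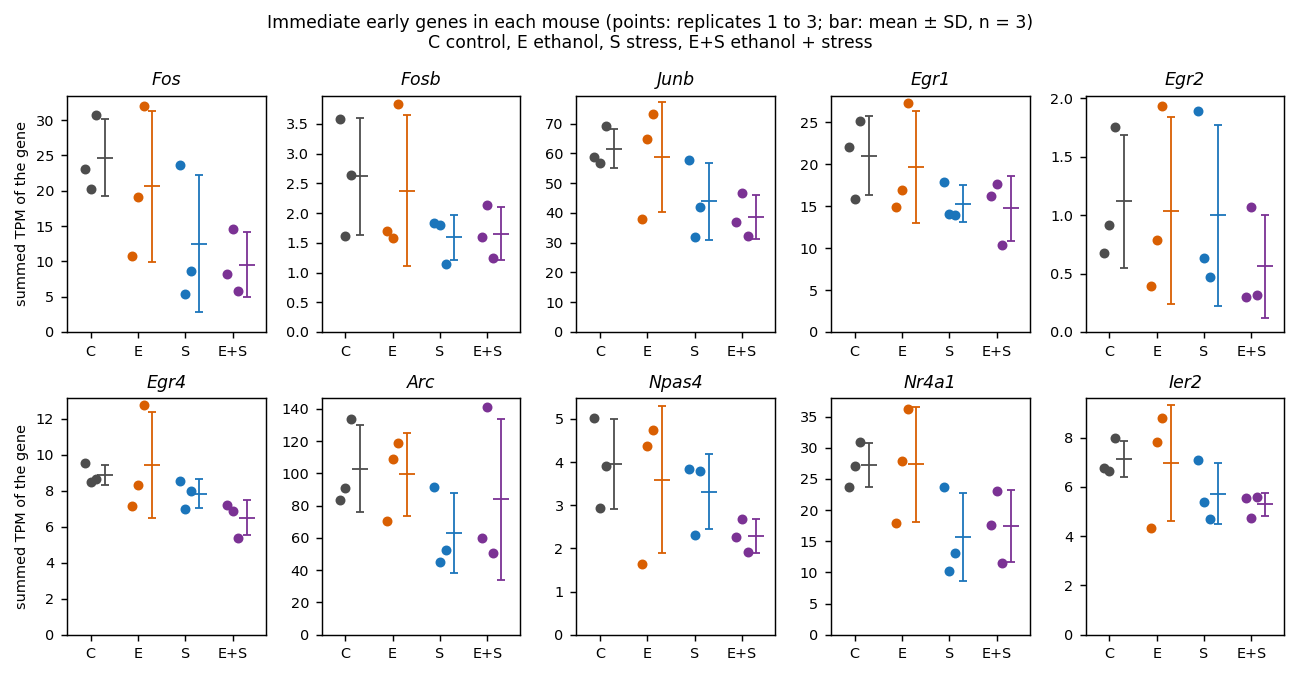
Summed TPM of each of the 10 genes on a linear axis from 0, with 1 point per mouse in replicate order and the mean ± SD of the 3 mice of a group beside them. Fos in ethanol + stress mice (5.74 to 14.6) lies below all controls (20.2 to 30.8), while stress replicate 1 (23.6) lies among them.

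Junb, an AP-1 subunit of the Jun family at chr8:84974484-84978718 on the minus strand, measured 58.9, 56.7 and 69.2 TPM in control, 38.01, 64.7 and 73.3 in ethanol, 57.8, 32.0 and 41.9 in stress and 36.8, 46.7 and 32.1 in ethanol + stress mice. The ethanol + stress mice were all below the controls, and stress replicate 1 lay within them. The stress effect was -0.54 (SE 0.18, 95% interval -0.93 to -0.15, limma, adjusted p = 1.0), and it passed the threshold when values were rescaled to a common total (-0.58) or had their trend over transcript length removed (-0.55). The annotated span of Junb overlaps 351 bases of Prdx2 on the opposite strand, but the overlap lies in Junb-202, outside Junb-201, which carries 99.8% of the TPM of the gene. Fosb, a Fos relative, lies at chr7:19302696-19310051 on the minus strand. It measured 3.58, 1.62 and 2.65 TPM in control, 1.70, 1.59 and 3.84 in ethanol, 1.83, 1.80 and 1.15 in stress and 1.60, 2.13 and 1.24 in ethanol + stress mice. The groups overlapped, and the stress effect of -0.45 (SE 0.23, limma) did not pass.

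The Egr genes encode zinc-finger factors. Egr1, the best known of them in memory formation, at chr18:34859823-34864984 on the plus strand, measured 22.1, 15.9 and 25.2 TPM in control, 14.9, 16.9 and 27.4 in ethanol, 17.9, 14.1 and 13.9 in stress and 16.3, 17.6 and 10.4 in ethanol + stress mice. The highest of the 6 stressed mice, 17.9, was above the lowest control, and the stress effect was -0.41 (SE 0.18, 95% interval -0.80 to -0.02, limma). Egr4, at chr6:85511121-85513589 on the minus strand, measured 9.54, 8.48 and 8.65 TPM in control, 7.18, 8.33 and 12.8 in ethanol, 8.55, 6.97 and 7.97 in stress and 7.22, 6.88 and 5.40 in ethanol + stress mice. It was the steadiest of the 10 apart from ethanol replicate 3, with the ethanol + stress mice all below the controls and a stress effect of -0.32 (SE 0.14, 95% interval -0.62 to -0.03, limma). Egr2, which is also needed by myelinating Schwann cells, at chr10:67535475-67542188 on the plus strand, was the lowest of the 10, at 0.677, 0.918 and 1.76 TPM in control, 0.394, 0.784 and 1.93 in ethanol, 1.89, 0.629 and 0.474 in stress and 0.296, 1.07 and 0.317 in ethanol + stress mice. These rest on 5.99 to 43.0 read pairs, each group spans more than the distance between group means, and the effect of -0.33 (SE 0.31, limma) was not detectable at this depth and spread.

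Arc encodes a cytoskeletal protein of the synapse that takes part in the removal of AMPA receptors, and Npas4 a neuron-specific factor that answers to calcium. Arc, at chr15:74669083-74672570 on the minus strand, had the highest level of the 10 genes, at 83.8, 91.1 and 134 TPM in control, 70.3, 109 and 119 in ethanol, 91.5, 45.4 and 52.6 in stress and 59.9, 141 and 50.8 in ethanol + stress mice. Ethanol + stress replicate 2 held the highest Arc value of all 12 mice, although 4 of the other 5 stressed mice were below every undisturbed one. Its stress effect of -0.55 (SE 0.26, limma) did not pass, and became -0.77 and was called without that mouse. Npas4, at chr19:4984355-4990316 on the minus strand, measured 5.02, 2.94 and 3.90 TPM in control, 1.63, 4.38 and 4.75 in ethanol, 3.84, 2.31 and 3.79 in stress and 2.26, 2.68 and 1.91 in ethanol + stress mice. The lowest value of all belonged to ethanol replicate 1, and the stress effect was -0.34 (SE 0.23, limma). Ier2, a rapidly induced nuclear protein encoded by 1 exon at chr8:84661331-84662852 on the minus strand, measured 6.76, 6.65 and 7.97 TPM in control, 4.33, 7.82 and 8.81 in ethanol, 7.09, 5.38 and 4.70 in stress and 5.53, 4.74 and 5.60 in ethanol + stress mice. Ethanol + stress mice again lay below the controls, and the stress effect was -0.31 (SE 0.16, limma).

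**Figure D3:**
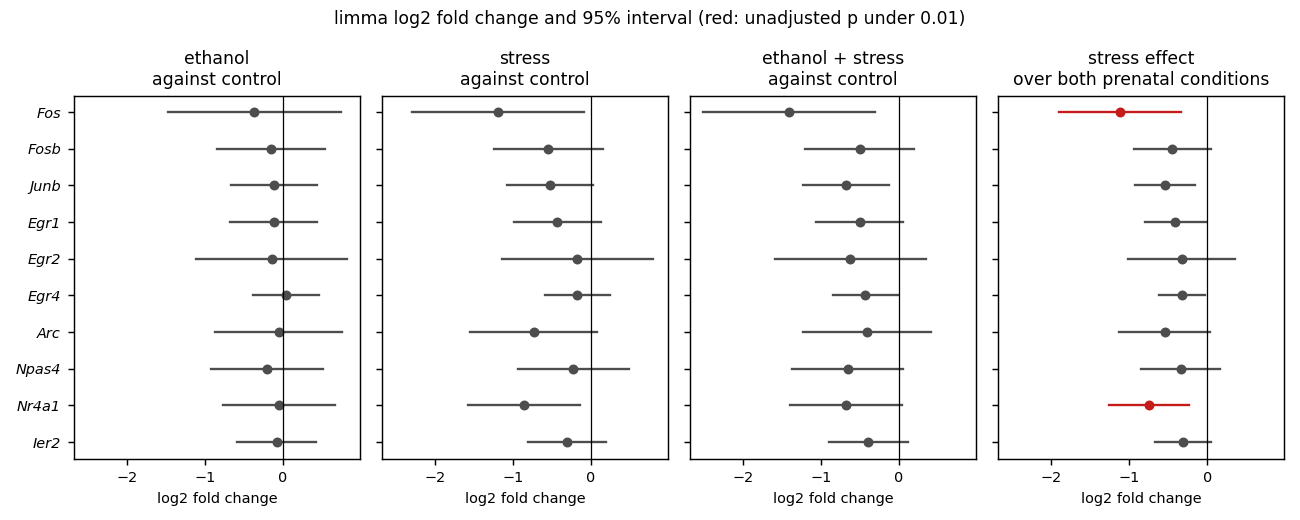
Log2 fold change (points) with its 95% interval (lines) from limma for the 10 genes in 4 comparisons, on a common axis, with calls at unadjusted p under 0.01 in red. Fos (-1.12) and Nr4a1 (-0.75) are the red points, both in the stress effect, and in ethanol mice 9 of 10 points lie below 0, from -0.36 for Fos to 0.04 for Egr4, with intervals that all cross 0.

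Taken against control mice one treatment at a time, with the same 3 controls in each comparison, none of the 10 genes was called. In ethanol + stress mice all 10 fitted differences were negative, with a median of -0.57 where that of all genes is 0.02 and 45.9% are negative. Fos (-1.41, SE 0.51, limma, adjusted p = 0.791), Junb (-0.68, SE 0.25) and Egr4 (-0.43, SE 0.19) had p under 0.05, 3 of 10 where 2.12% of all genes did so as lower, and 0.277% of all genes were called lower and 0.971% in either direction. In 6 of 10 genes (Fos, Junb, Egr4, Npas4, Nr4a1 and Ier2) the 3 ethanol + stress mice were all below the 3 controls, as in 4.62% of all genes tested. With only these 2 groups in the model 2 of 10 were called, after rescaling to a common total 1 was, and without ethanol + stress replicate 2 Fos was (-1.75). Blood genes were called higher in this comparison, with 5 of 5 and a median of 1.08, and neuron markers had a median of -0.21 with 4 of 4 negative and 0 called. CA1 pyramidal cell markers had a median of -0.29 with 3 of 4 negative. Positive values were found for 4 of 4 astrocyte markers (median 0.13), 3 of 4 oligodendrocyte markers (0.13), 3 of 4 striatum markers (0.29) and 5 of 5 choroid plexus markers (0.40), with none called. Oligodendrocyte markers summed to 3246, 5651 and 5701 TPM in the ethanol + stress mice, from lowest to highest, and 3917 to 4300 TPM in control mice. Blood genes summed to 2454 to 6480 TPM in ethanol + stress and 1603 to 2022 TPM in control mice. In ethanol + stress mice the neuron marker sums were 1997 to 2530 TPM against 2401 to 2434 in control mice, and the part of these markers in the result was not tested.

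In stress mice all 10 fitted differences were again negative, with a median of -0.48 where that of all genes is 0.00 and 48.5% are negative. Fos (-1.19, SE 0.51, limma) and Nr4a1 (-0.86, SE 0.33) had p under 0.05 (1.01% of all genes as lower), with adjusted p = 1.0, and 0 of 10 were called where 0.228% of all genes were called lower and 0.510% in either direction. In no gene were the 3 stress mice all below the controls (3.39% of all genes), as stress replicate 1 was above the lowest control in each of the 10. Without stress replicate 1, Fos (-1.76) and Nr4a1 (-1.19) were called. Markers of other tissues had positive values in the same comparison, with none called. Those of blood were positive in 5 of 5 (median 0.70) and summed to 2593 to 3392 TPM in stress against 1603 to 2022 in control mice, which did not overlap. Striatum markers were positive in 4 of 4 (median 0.38), with sums of 45.4 to 57.9 against 36.7 to 44.1 TPM that did not overlap either, and choroid plexus markers in 5 of 5 (median 0.99), with overlapping sums. How often the sums of other gene sets fail to overlap was not counted. None of these markers was at 0 in a library, and their part in the result was not tested.

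In ethanol mice 9 of 10 differences were negative, from -0.36 for Fos to 0.04 for Egr4, with a median of -0.12 where that of all genes is 0.02 and 44.4% are negative. None of the 10 was called (0.163% of all genes as lower, 0.678% in either direction), and none had p under 0.05 in limma (1.06% as lower). No gene had groups that did not overlap (3.19% of all genes as lower). The 95% interval of Fos, -1.47 to 0.74, holds the stress effect of Fos as well as 0. The ethanol effect over both rearing conditions ran from -0.32 for Npas4 to 0.13 for Arc, with 0 of 10 called (0.298% as lower, 1.12% in either direction), none with p under 0.05 (2.01% as lower) and none with groups that did not overlap (0.108%). Of the values over both rearing conditions 8 of 10 were negative, where 44.4% of all genes were. In ethanol mice 5 of 5 blood markers were called higher (median 1.24), and no other marker was called. Choroid plexus (-1.16, 5 of 5), oligodendrocyte (-0.17, 4 of 4) and dentate granule markers (-0.22, 3 of 4) were negative. Astrocyte (0.06) and endothelium markers (0.08) were positive in 3 of 4 each. In the ethanol effect 1 of 4 dentate granule markers was called lower. The part of these markers was not tested. The interaction, which tests whether the stress difference depends on ethanol, ran from -0.31 for Egr2 to 0.38 for Arc, 5 values on each side of 0, with 0 of 10 called (0.461% of all genes in either direction), and none with p under 0.05 in limma (2.69%).

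The 10 genes varied together from mouse to mouse, also within a group. Standardized over the 12 mice and averaged over the 10 genes, levels were highest in ethanol replicate 3 (1.52 SD units), which had the highest value of all mice for 8 of 10 genes, followed by control replicates 3 (1.04) and 1 (0.68). Stress replicate 1 (0.50) and ethanol replicate 2 (0.45) came next, then control replicate 2 (0.19) and ethanol + stress replicate 2 (0.01). The lowest were ethanol + stress replicate 3 (-1.32), which was among the 3 lowest for 9 of 10 genes, stress replicate 2 (-0.95), ethanol replicate 1 (-0.75), stress replicate 3 (-0.70) and ethanol + stress replicate 1 (-0.67). Of these 5 mice with an average below 0, 4 were stressed, and ethanol replicate 1, the other one, was above the median of the 12 mice for none of the 10 genes.

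**Figure D4:**
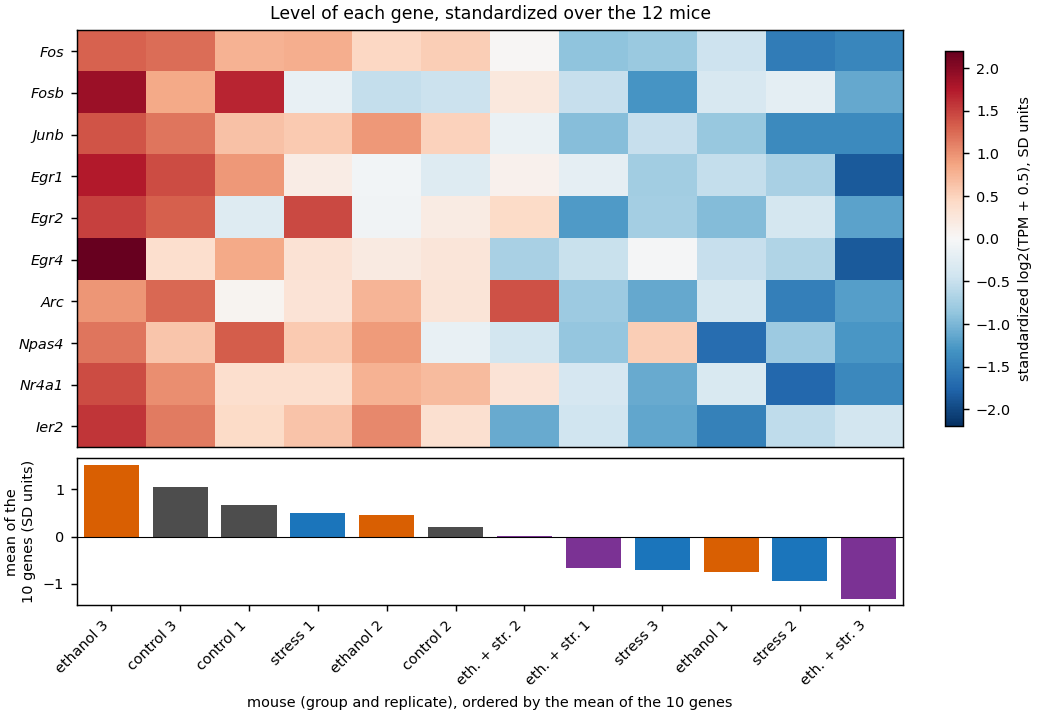
Levels of the 10 genes as log2(TPM + 0.5), standardized over the 12 mice (color, SD units), with mice ordered from left to right by the average of the 10 genes, and that average as bars below, colored by group. Ethanol replicate 3 (1.52) is at the high end and ethanol + stress replicate 3 (-1.32) at the low end, and columns are mostly of 1 color.

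Over the 12 mice the 45 pairs of these genes had Pearson correlations between 0.52 (Arc with Npas4) and 0.97 (Fos with Junb), with a median of 0.75, and Spearman correlations between 0.47 and 0.95. As deviations from the group means the Pearson values were 0.41 to 0.97 with a median of 0.73, where pairs of all other genes with a mean of at least 1 TPM had a median of 0.00 over the 12 mice. These pairs share the same 12 libraries and their scaling, and the correlations are a description. The spread within groups was an SD of 0.74 for Fos on the log2 scale, larger than in 97.8% of 14398 genes, and 0.62 for Egr2, 0.55 for Arc and 0.47 for Nr4a1. Egr4 had the smallest, 0.24 against a median of 0.20 for all genes. The highest value was 6.51 times the lowest in Egr2, 5.96 times in Fos and 2.04 times in Ier2.

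Of 14389 other genes with a mean of at least 1 TPM, Btg2, an antiproliferative gene also induced by activity, followed the average of the 10 genes most closely, with a Pearson correlation of 0.90 and a Spearman correlation of 0.90 over the 12 mice. Next came Cnot9 (0.85), a subunit of the CCR4-NOT deadenylase, Zfp128 and Zswim3 (0.82 each), and Dusp1 (0.82), a phosphatase of MAP kinases. Morn4 and Zfp956 (0.81 each), Sik1 (0.80), a kinase that restrains CREB coactivators, 9930104L06Rik (0.80) and Spty2d1 (0.79) completed the first 10. The median over all genes searched was -0.03, and 0.236% of them were above 0.7.

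Other genes of the activity response were taken as 4 lists by role. Of 13 feedback regulators, which switch the signal off again, 3 were called lower in the stress effect and 12 had negative values, with a median of -0.08, where 0.277% of all genes were called lower and 50.1% were negative. Dusp1 measured 10.7, 9.40 and 13.8 TPM in control, 8.50, 11.5 and 13.2 in ethanol, 9.81, 4.33 and 7.89 in stress and 5.99, 6.52 and 7.34 in ethanol + stress mice, a stress effect of -0.66 (SE 0.18, limma). All ethanol + stress mice lay below all undisturbed mice, a pattern whose share over all genes was not counted. The Dusp1 call was kept in 10 of 12 fits without 1 library and in 9 of 10 other alternatives. It was lost without control replicate 3 (-0.59) or ethanol replicate 3 (-0.60). Btg2 (-0.47, SE 0.15) and Gadd45b (-0.49, SE 0.16), a stress-induced gene tied to DNA demethylation, were called as well, with adjusted p = 1.0 in limma for all 3. Each kept the call in 2 of 12 such fits, Btg2 without ethanol replicate 1 or stress replicate 1 and Gadd45b without stress replicate 1 or ethanol + stress replicate 2, with values of -0.59 to -0.38 for Btg2 and -0.59 to -0.36 for Gadd45b over all 12. Of 10 other alternatives, 4 kept the call of Btg2 and 6 that of Gadd45b. Dusp6, the highest of this list, did not pass (-0.07, SE 0.10).

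Of 17 further transcription factors and rapid genes, 2 were called lower in the stress effect, against 0.277% of all genes, and the median was -0.02. Their 10 negative values are a share close to the 50.1% of all genes. Cyr61, now named Ccn1, a secreted matrix protein, measured 5.44, 4.17 and 5.52 TPM in control, 2.89, 6.48 and 5.75 in ethanol, 3.88, 2.75 and 3.59 in stress and 2.16, 1.96 and 2.27 in ethanol + stress mice. All 6 stressed mice were below all 3 controls, a pattern whose share over all genes was not counted. Among undisturbed mice, ethanol replicate 1 (2.89) was below stress replicates 1 and 3, so the stressed and undisturbed mice overlapped. The stress effect was -0.76 (SE 0.18, limma, adjusted p = 1.0). Csrnp1, an AXIN1-induced nuclear protein, measured 11.6, 7.35 and 10.997 TPM in control, 8.73, 6.60 and 8.04 in ethanol, 7.79, 6.03 and 6.45 in stress and 6.54, 4.29 and 4.65 in ethanol + stress mice, with an effect of -0.54 (SE 0.14, limma). Only stress replicate 1 among stressed mice exceeded a control, and both calls were kept in 12 of 12 fits without 1 library and in 9 of 10 other alternatives. Jun, the highest gene of this list and the usual partner of Fos, did not pass (0.02, SE 0.07).

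Of 14 delayed and secreted effectors such as Bdnf, and of 15 genes of upstream signalling such as Creb1, none was called in the stress effect, with medians of -0.02 and -0.01. As 0.586% of all genes were called in either direction, a count of 0 in lists of this size is no result about them. The highest of each, Nrn1 (0.03, SE 0.06, limma) and the kinase Camk2a (0.10, SE 0.12), did not pass either. In ethanol + stress against control mice Csrnp1 (-0.88, SE 0.20, limma), Cyr61 (-1.07, SE 0.25) and Btg2 (-0.66, SE 0.21) were called lower (0.277% of all genes), with adjusted p = 0.791 for each, and Btg2 was called in none of the 6 fits without 1 library. In stress against control mice Nr4a2, a relative of Nr4a1, was called lower, as were 0.228% of all genes (-0.79, SE 0.23, limma, adjusted p = 1.0), with 20.4, 28.3 and 26.0 TPM against 48.1, 44.2 and 37.8 in control mice. The ethanol + stress mice reached 43.0, 36.1 and 29.9 TPM, and the interaction for Nr4a2 was 0.81 (SE 0.32), which did not pass. The Nr4a2 call was kept in 2 of 6 fits without 1 library, those without control replicate 3 or stress replicate 2 (-0.89 each), and lost in the other 4, with -0.66 without stress replicate 1. No gene of the 4 lists was called in ethanol mice, where 0.678% of all genes were called in either direction, so that this count of 0 is no result about the lists.

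Most of the 10 genes are carried by 1 main isoform. Of their 31 transcripts 28 were above 0 in a library and 19 were high enough to be tested. One of these 19, Nr4a1-201 (ENSMUST00000023779.7), was called in stress against control mice (0.914% of all 59852 transcripts in either direction) and in the stress effect (0.934%). It measured 18.6, 17.2 and 27.1 TPM in control, 12.4, 15.2 and 29.98 in ethanol, 14.1, 5.68 and 5.38 in stress and 14.5, 16.5 and 7.28 in ethanol + stress mice. The stress mice were all below the controls, a pattern found in 3.39% of all gene sums and not counted over transcripts. The difference was -1.38 (SE 0.43, limma, adjusted p = 1.0), against -0.96 (SE 0.31) for the stress effect. The call against control was kept in 1 of 6 fits without 1 library, that without stress replicate 1 (-1.81), and lost without any of the other 5 (-1.50 to -1.15), while that of the stress effect was kept in 3 of 12, those without ethanol replicate 1, stress replicate 1 or ethanol + stress replicate 2 (-0.78 to -1.18 over all 12). Other alternatives kept the call against control in 6 of 11 and that of the stress effect in 2 of 10. Nr4a1-202 starts 12577 bases upstream, encodes a protein of the same 601 codons, and measured 8.93, 2.78 and 6.20 TPM in stress against 3.36, 4.13 and 2.16 in control mice (0.71, SE 0.42, limma). Nr4a1-201 held 41.1% to 87.9% of the gene's TPM over the 12 mice, with group shares of 77.0% in control and 53.5% in stress mice, whose difference was not tested. These isoforms share most of their exons, so that the split rests on the assignment of shared reads by the authors.

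The other isoforms were not called. Arc-201 and Arc-202 differ by 2 bases at the first exon and by 3 bases in exon 2, so that their split, 60.5% to 75.8% for Arc-201, is uncertain, and Arc-201 had a stress effect of -0.49 (SE 0.26, limma). Fos-201 (-1.11, SE 0.38) held 82.8% of the Fos TPM, and Egr1-202 held 88.9% of those of Egr1. Fosb-201 encodes the full protein of 338 codons (-0.37, SE 0.27), while Fosb-206 matches the known short form ΔFosB, with 237 codons. The listed TPM of Fosb-206 were 1.57, 0.313 and 0.662 in control mice, 0.545, 0 and 1.04 in ethanol mice, 0, 0.162 and 0 in stress mice and 0.567, 0 and 0.614 in ethanol + stress mice. It exceeded 3 read pairs in 6 of 12 libraries and was listed at 0 in 4. No stress mouse exceeded that level, so no fold change is given, and Fosb-206 was called in no comparison in limma. The listed Fosb-206 is shorter than Fosb-201 at both ends (1090 against 3782 bases in all), and the splice difference between them is 140 bases removed as an intron within exon 4 of Fosb-201, at chr7:19305007-19305146 (GRCm38, minus strand), in the coding region. The spliced segment is printed in capitals from the GENCODE transcript, 5′ to 3′, with 30 bases of exon on either side in lower case.
Fosb: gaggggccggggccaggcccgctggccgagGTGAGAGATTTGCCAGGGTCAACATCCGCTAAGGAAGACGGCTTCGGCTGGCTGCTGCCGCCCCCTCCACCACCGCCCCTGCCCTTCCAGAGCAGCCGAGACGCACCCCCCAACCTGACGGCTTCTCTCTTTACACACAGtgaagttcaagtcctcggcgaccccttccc

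**Figure D5:**
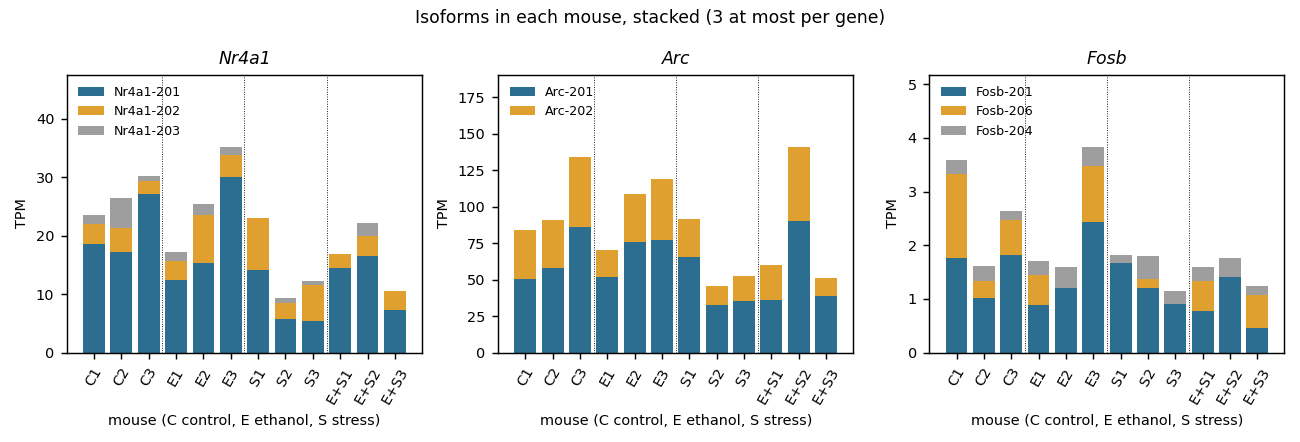
Stacked TPM of the isoforms of Nr4a1, Arc and Fosb in each mouse, on linear axes from 0 with at most 3 isoforms per gene, in the order control, ethanol, stress and ethanol + stress, split by dotted lines. Nr4a1-201 is low in stress replicates 2 and 3 (5.68 and 5.38), and Fosb-206 is listed at 0 in 4 mice.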

How the data were processed

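RNA was extracted from hippocampus with AllPrep and libraries were made with the TruSeq stranded total RNA kit with RiboZero Gold. The submitters' processing notes name CASAVA, kallisto and sleuth with mm10, and versions are not given in the sources used here. The deposited signal is TPM per transcript as scaled by the authors, 1 column per mouse, with sums between 889222 and 1173650. Read pairs per library, 12050000 to 14950000, were recovered here from the steps of low values, of which 77.8% to 80.5% were whole within 0.1 read pairs, so that no count test was run.

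Of 115270 transcripts 113580 matched GENCODE vM21 (GRCm38), and their values were summed for 35580 genes. The unmatched held 0.518% to 0.580% of a library. Genes (18434) and transcripts (59852) with at least 0.1 TPM in 6 of 12 libraries were tested as log2(value + 0.5) with limma 3.58.1 (moderated, with a mean trend, R 4.3.3) in a model of the 4 groups. A call is an unadjusted p under 0.01, as Benjamini-Hochberg adjustment over all features left few calls. Cyr61 was matched through its RefSeq name Ccn1. The code was tested on simulated data, and tables were made with Python 3.11.15, pandas 2.3.3 and numpy 2.4.6.

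All 10 immediate early genes are named, and of each further list the called genes and the gene with the highest mean. The members and lists were chosen with earlier results of these data known. Alternatives were other pseudocounts, filters, scalings, variance models and sample sets. Those without the 3 libraries of highest sums or with the trend over transcript length removed, were chosen after seeing the data. Replicate mice are separate animals by label, and their litters are not given.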

Additional observations from a re-analysis of the deposited data

How the results depend on the processing

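In the stress effect, 0 of the 10 genes were called with no filter, without the variance trend, with a replicate block, or without the 3 libraries of highest sums, which leaves 1 ethanol + stress mouse with its spread taken from the other groups, and 0 to 5 when 1 library was left out. In ethanol + stress against control 1 was called after rescaling to a common total, 2 with only the groups compared and 0 to 1 without 1 library, and in stress against control 0 to 2. The labels do not say whether replicate numbers link mice. Over all genes tested, 18 same-numbered pairs had correlations of deviations from group means between -0.17 and 0.16, with 1 above 0.1. Other pairs were not compared, so this cannot tell whether mice are linked. The replicate block ended the calls of Fos and Nr4a1. Of all genes, 125 were called in ethanol against control, 94 in stress against control, 179 in ethanol + stress against control, 207 in the ethanol effect, 108 in the stress effect and 85 in the interaction. A minimum of 1 TPM gave 69, 42, 62 and 48 in ethanol, stress, stress effect and interaction, no filter gave 198 in ethanol and 131 in the interaction, rescaling gave 118 in ethanol + stress and 128 in the ethanol effect, and leaving out the 3 libraries of highest sums gave 130 in the interaction. Without 1 library the counts were 114 to 763 in ethanol + stress, 138 to 653 in the ethanol effect and 77 to 140 in the interaction. Rescaling moved the median of all genes by -0.13 in ethanol + stress against control. The share of higher genes among calls went from 76.0% to 64.6% with median-of-ratios scaling, 59.6% rescaled and 52.8% with the length trend removed in ethanol, from 55.3% to 44.3% with the length trend removed in stress, and from 71.5% to 45.8% rescaled and 51.1% with the length trend removed in ethanol + stress. It went from 73.4% to 54.2%, 50.0% and 54.5% in the ethanol effect and from 52.8% to 40.7% rescaled and 37.5% with the length trend removed in the stress effect.

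Signs turned for values that were not called, most of them near 0. Without the 3 libraries of highest sums Fosb was 0.0379 in ethanol against control, Fosb 0.0308, Egr1 0.0311, Egr4 0.000158 and Arc -0.0737 in the ethanol effect, and Fosb -0.0142, Junb 0.00429 and Ier2 0.16 in the interaction. Rescaled, Egr4 was -0.0339 in ethanol against control, Nr4a1 -0.0276 in the ethanol effect, and Jun -0.0148 and Nrn1 -0.00492 in the stress effect. Without 1 library, log2 fold changes in ethanol against control ran from -0.74 to 0.0226 for Fos, -0.49 to 0.0689 for Fosb, -0.30 to 0.16 for Junb, -0.37 to 0.0554 for Egr1, -0.54 to 0.18 for Egr2, -0.19 to 0.21 for Egr4, -0.20 to 0.18 for Arc, -0.44 to 0.21 for Npas4, -0.27 to 0.23 for Nr4a1 and -0.26 to 0.21 for Ier2. Egr2 ran from -0.57 to 0.0949 in stress against control. Those in the ethanol effect ran from -0.22 to 0.0552 for Fosb, -0.24 to 0.00155 for Junb, -0.22 to 0.0167 for Egr1, -0.0909 to 0.28 for Arc, -0.0581 to 0.24 for Nr4a1 and -0.18 to 0.061 for Ier2, those in the stress effect from -0.0205 to 0.0552 for Jun, -0.12 to 0.00188 for Dusp6 and -0.0032 to 0.0535 for Nrn1, and those in the interaction from -0.30 to 0.72 for Fos, -0.0275 to 0.53 for Fosb, -0.33 to 0.17 for Junb, -0.13 to 0.29 for Egr1, -0.64 to 0.0858 for Egr2, -0.0718 to 0.68 for Arc, -0.65 to 0.00373 for Npas4, -0.0456 to 0.56 for Nr4a1 and -0.30 to 0.17 for Ier2. The cause of these changes was not tested. Depth limits Egr2 and the isoforms of low level, and 3 mice a group limit all comparisons.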
